A study of Mus musculus with 6 samples.

Results

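The genes described here encode the proteins that link and finish a basement membrane: the nidogens Nid1 and Nid2, the heparan sulfate proteoglycans perlecan (Hspg2) and agrin (Agrn), the multiplexin collagens Col15a1 and Col18a1, and the cross-linking enzyme peroxidasin (Pxdn). They were chosen by gene symbol, through the RefSeq accession of each non-control probe on the array. All 7 genes were found, with 9 of the 41174 non-control probes, and 8 of these 9 probes were bright enough to be tested. Expression was measured in primary astrocyte cultures from the cerebral cortex of C57BL/6 mice at embryonic day 18, bought from a supplier, on 6 one-colour Agilent whole-genome arrays. The miR-29 group (3 arrays) was transfected with precursors of the 3 family members (miR-29a, miR-29b, miR-29c), mixed with most of miR-29b, and the control group (3 arrays) received a negative control precursor. Each precursor preparation was used at 80 nM, 3 weeks after plating and 48 h before harvest, with a stated transfection efficiency above 90%. According to its title the study looked at miR-29 in relation to longevity. Setting the groups against each other shows how transcript levels differed between cultures with added miR-29 and control cultures. The arrays of a group are described as extraction replicates, with no word on whether the cultures were separate. Each p-value below therefore reflects the spread among these samples, and that spread may be technical. RNA came from whole cultures, in which fewer cells of a type and less RNA per cell cannot be told apart.

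A basement membrane is a thin sheet of matrix built from a network of laminins and a network of type IV collagen. Nidogens bind both networks and join them, perlecan and agrin carry heparan sulfate chains that hold growth factors and bind cell-surface receptors, and the multiplexins lie at the border to the surrounding matrix and release antiangiogenic fragments such as endostatin. Peroxidasin forms the sulfilimine bonds that lock type IV collagen molecules together. In the brain, astrocyte end-feet rest on such a sheet around blood vessels and below the pia.

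MicroRNAs lower the messenger RNAs they pair with, mainly through the seed, bases 2 to 8 of the mature strand. The mature strands of the transfected family are shown because the shared seed defines the treatment. They are the mouse entries of RefSeq (GRCm38.p6), 5′ to 3′, with the seed in capitals.
miR-29a-3p: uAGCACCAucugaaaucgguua
miR-29b-3p: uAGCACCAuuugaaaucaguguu
miR-29c-3p: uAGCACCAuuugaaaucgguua
The seed was the same in all 3. Counted from 1 at the 5′ end, miR-29c differed from miR-29a by C10U alone, and miR-29b differed by C10U, G18A, U21G and A22U and had 1 more base at its 3′ end.

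RefSeq start-site windows on GRCm38.p6, of 300 bases that lie mostly upstream of a gene's start, were matched for 6 of the 7 genes and gave 8 windows, since Agrn and Col18a1 have 2 start sites each. Nid2 had no entry. The windows of Nid1 and Col15a1, the genes that fell at least 2-fold as reported below, and both windows of Col18a1, which fell least, are shown on the coding strand with the GC box in capitals. The GC box was searched as GGGCGG on both strands, with overlapping matches allowed.
Nid1, chr13:13437352-13437651, plus strand: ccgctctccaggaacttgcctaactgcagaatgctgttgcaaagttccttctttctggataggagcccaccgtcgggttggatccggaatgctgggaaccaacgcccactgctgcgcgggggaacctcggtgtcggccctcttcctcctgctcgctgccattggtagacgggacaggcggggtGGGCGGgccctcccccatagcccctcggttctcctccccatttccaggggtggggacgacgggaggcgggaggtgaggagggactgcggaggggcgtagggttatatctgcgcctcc
Col15a1, chr4:47207762-47208061, plus strand: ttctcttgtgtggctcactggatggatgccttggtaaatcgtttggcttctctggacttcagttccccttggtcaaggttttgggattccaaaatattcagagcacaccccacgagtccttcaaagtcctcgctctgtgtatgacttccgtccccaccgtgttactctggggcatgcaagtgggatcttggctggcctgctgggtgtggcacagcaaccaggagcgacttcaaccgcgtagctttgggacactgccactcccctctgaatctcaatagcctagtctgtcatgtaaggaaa
Col18a1, first start, chr10:77166481-77166780, minus strand: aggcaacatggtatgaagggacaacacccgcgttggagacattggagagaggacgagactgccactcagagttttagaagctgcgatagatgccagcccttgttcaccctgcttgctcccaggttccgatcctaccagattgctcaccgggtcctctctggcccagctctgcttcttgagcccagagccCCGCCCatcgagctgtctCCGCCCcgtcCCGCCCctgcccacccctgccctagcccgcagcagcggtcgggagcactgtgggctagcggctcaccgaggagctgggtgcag
Col18a1, second start, chr10:77113656-77113955, minus strand: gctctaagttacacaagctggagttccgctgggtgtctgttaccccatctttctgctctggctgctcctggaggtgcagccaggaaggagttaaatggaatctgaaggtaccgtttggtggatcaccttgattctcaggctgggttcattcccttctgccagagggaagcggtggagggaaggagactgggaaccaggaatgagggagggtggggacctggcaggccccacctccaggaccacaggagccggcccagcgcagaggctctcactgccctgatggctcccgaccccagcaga
The Nid1 window held 1 GC box, the Col15a1 window 0, and the Col18a1 windows 3 and 0. Over all members 6 of 8 windows held a GC box, against 35.7% of 32851 mouse windows, and the first start of Agrn had the most, with 12. The GC box holds only G and C, and the 8 windows were 52.3% to 83.3% G or C. The median over all mouse windows was 52.7%. Whether the number of GC boxes exceeds what this base content gives was not tested. CCAAT was found on either strand in 3 of 8 windows, against 37.4% of all, and TATAAA in 0 of 8, against 13.6%. A match is a stretch of letters and was not tested as a binding site.

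Each of the 7 genes fell under miR-29, past the test, by 0.38 to 1.11 on the log2 scale. The median log2 fold change of the 7 genes was -0.83, against 0.068 over the 19741 genes and transcripts tested. Each of the 8 tested probes fell, where 22.7% of 26428 tested probes were lower and 35.3% higher, and the 3 miR-29 arrays lay below the 3 control arrays for each of the 8, as they did for 26.3% of probes. At the level of genes, 7 of 7 were lower, where 22.8% of genes were, and 7 of 7 had groups that did not overlap, with miR-29 below, where 26.4% of genes did. Falls of at least 2-fold were seen for Nid1 and Col15a1, where 3.64% of genes fell so far. The fits were made with limma over all kept probes or genes, with Benjamini-Hochberg adjustment over all of them.

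The arrays were alike in quality. The share of probes well above background lay between 62% and 66.8%, 0 spots were saturated, and arrays of the same group correlated across genes at 0.994 to 0.998, against 0.975 to 0.985 between groups. The miR-29 arrays shared slide 1 with control replicate 1, while the other control arrays were on slide 2, so a value within slide 1 is given for each gene and slide 2 holds samples of the control group only. Signals are given as multiples of the array's 75th percentile, which lay between 501 and 663 intensity units. They compare arrays for 1 probe and not 1 probe with another.

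**Figure D1:**
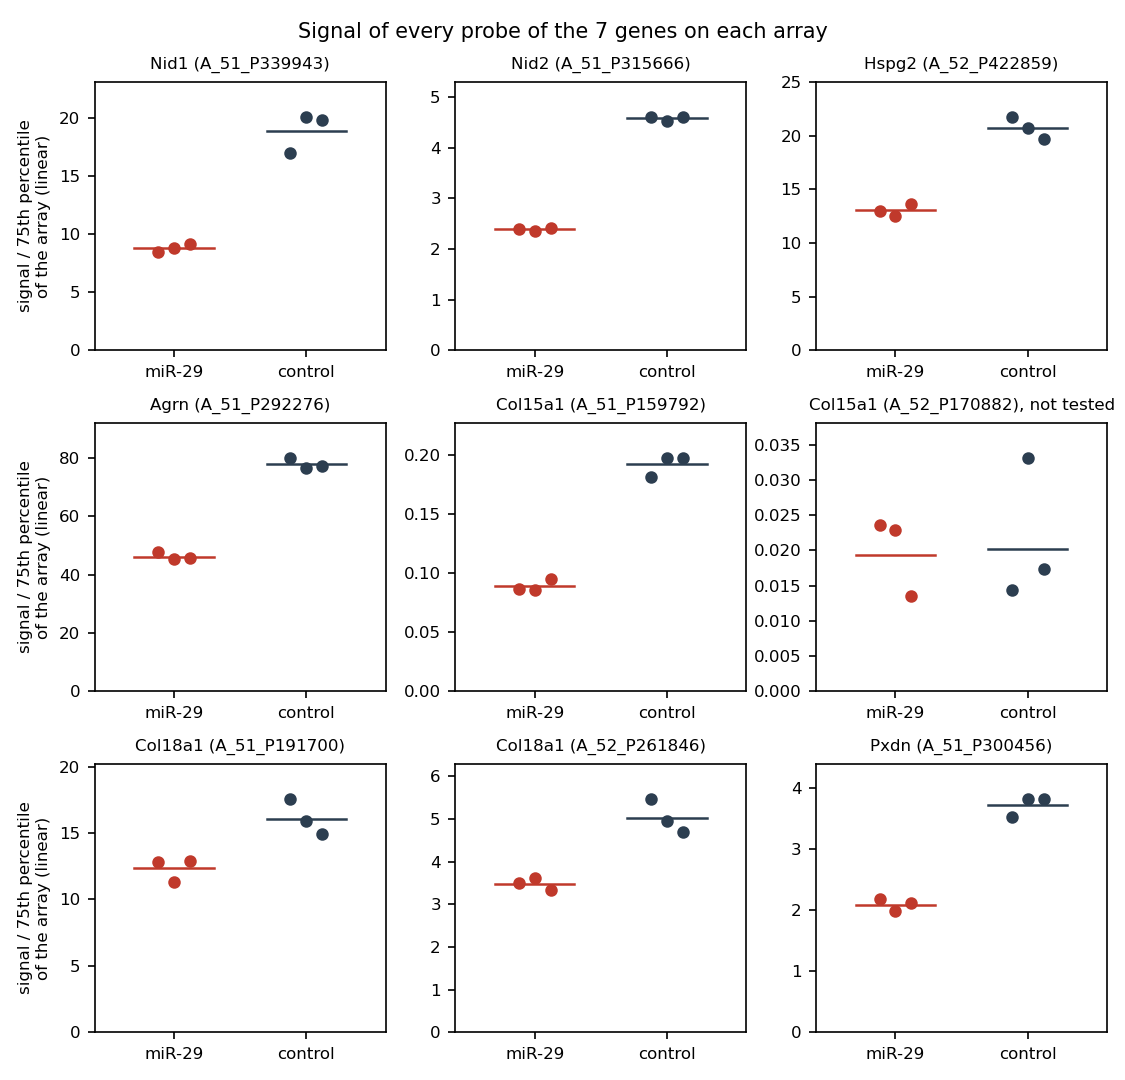
Signal of the 9 probes of the 7 genes on each array, as a multiple of the array's 75th percentile on a linear axis from 0. Points are single arrays in the order of the replicates, 3 per group, and bars are geometric means. In 8 panels each miR-29 point lies below each control point, and in the panel of the dim Col15a1 probe the groups overlap.

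The nidogens, which bridge the laminin and type IV collagen networks, fell by about the same factor. The Nid1 signal was 8.47, 8.80 and 9.20 times the 75th percentile on the miR-29 arrays, against 17.0, 20.1 and 19.8 times on the control arrays. The groups were well apart, and control replicate 1 was the lowest of the controls. On the log2 scale Nid1 averaged 3.14 ± 0.059 in miR-29 arrays and 4.24 ± 0.13 in control arrays (SD, n = 3 each), a fall of 1.10 (SE 0.081, adjusted p = 1.49e-04) to 46.6% of the control level. Of all tested probes, 2.88% had a lower log2 fold change. Within slide 1 the log2 difference was -0.95. Nid2 had 2.40, 2.36 and 2.42 times the 75th percentile on the miR-29 arrays, against 4.61, 4.53 and 4.60 times on the control arrays. These were the tightest values of the 7 genes, with SDs of 0.017 in miR-29 arrays and 0.013 in control arrays on the log2 scale. Nid2 fell by 0.94 (SE 0.044, adjusted p = 4.62e-05), to 52.3% of the control level, and its log2 difference within slide 1 was -0.95.

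Both heparan sulfate proteoglycans fell by less than 2-fold. Perlecan is a large proteoglycan of most basement membranes, including those of vessels. The Hspg2 signal was 13.0, 12.5 and 13.7 times the 75th percentile on the miR-29 arrays, against 21.8, 20.7 and 19.7 times on the control arrays, with no overlap. Hspg2 fell by 0.67 (SE 0.062, adjusted p = 3.35e-04), to 63% of the control level, and 8.72% of tested probes had a lower log2 fold change. Agrin clusters acetylcholine receptors at the nerve-muscle synapse and is part of the perivascular sheet in the brain, where it binds dystroglycan. The Agrn signal was 47.6, 45.2 and 45.8 times the 75th percentile on the miR-29 arrays, against 80.0, 76.5 and 77.3 times on the control arrays. The spread within each group was small beside the distance between the groups. Agrn fell by 0.76 (SE 0.049, adjusted p = 1.00e-04), to 59.2% of the control level. Within slide 1 the log2 differences were -0.74 for Hspg2 and -0.79 for Agrn.

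The multiplexin collagens, whose C-terminal fragments are restin and endostatin, both fell. Col15a1 gave a dim signal with its brighter probe, A_51_P159792, at 0.0867, 0.0858 and 0.0951 times the 75th percentile on the miR-29 arrays, against 0.181, 0.198 and 0.197 times on the control arrays. This probe was well above background on all 6 arrays and its groups did not overlap. It fell by 1.11 (SE 0.066, adjusted p = 7.95e-05), to 46.4% of the control level, and its log2 difference was -1.03 within slide 1. With another background correction (normexp) the fall was 0.63, still past the test, and then smaller than the falls of Nid1, Nid2, Hspg2, Agrn and Pxdn. The second Col15a1 probe, A_52_P170882, was at the edge of detection. It stood at 0.0236, 0.0229 and 0.0136 times the 75th percentile on the miR-29 arrays and at 0.0144, 0.0332 and 0.0173 times on the control arrays, where the dimmest probe well above background stood at 0.0157 to 0.0197 times. It was above background on 2 of 3 arrays of each group and was therefore not tested in the main comparison. Without a filter on dim probes its log2 fold change was -0.058 (SE 0.386, adjusted p = 0.919), and its groups overlapped.

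Col18a1 had 2 bright probes. The brighter one, A_51_P191700, stood at 12.8, 11.3 and 12.9 times the 75th percentile on the miR-29 arrays, against 17.6, 15.9 and 14.9 times on the control arrays. Here the highest miR-29 array and the lowest control array lay closer together than for any other tested probe of the 7 genes relative to their level. This probe fell by 0.38 (SE 0.086, adjusted p = 0.0104), to 76.7% of the control level, and 18.1% of tested probes had a lower log2 fold change. The other probe, A_52_P261846, stood at 3.49, 3.62 and 3.34 times on the miR-29 arrays, against 5.47, 4.96 and 4.68 times on the control arrays. It fell by 0.53 (SE 0.073, adjusted p = 0.0015), to 69.2% of the control level. Within slide 1 the log2 differences of the probes were -0.51 and -0.65, since control replicate 1 was the highest control array for both. The fall of the brighter probe ranged from 0.32 to 0.44 when single arrays were left out.

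Pxdn, the peroxidase that cross-links type IV collagen, stood at 2.18, 1.99 and 2.12 times the 75th percentile on the miR-29 arrays, against 3.53, 3.83 and 3.83 times on the control arrays. The lowest control array was control replicate 1. Pxdn fell by 0.83 (SE 0.062, adjusted p = 1.59e-04), to 56.2% of the control level, with a log2 difference of -0.75 within slide 1.

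Whether members of the same kind differed in their change was asked with the difference of their log2 values within each array, compared by a two-sided exact permutation test over the 6 arrays, for 4 pairs. With 3 arrays a group the smallest p this test allows is 0.1, so no pair could pass the threshold. The change of Col15a1 minus that of Col18a1 was -0.72 (exact permutation p = 0.1, adjusted p = 0.2). The within-array differences did not overlap, at -7.21, -7.04 and -7.09 in the miR-29 group, against -6.60, -6.33 and -6.24 in the control group. This gap was -0.51 within slide 1 and -0.25 with normexp background correction. The change of Nid1 minus that of Nid2 was -0.17 (exact permutation p = 0.3, adjusted p = 0.4), with overlapping groups, and was -0.0025 within slide 1. The change of Hspg2 minus that of Agrn was 0.089 (exact permutation p = 0.1, adjusted p = 0.2), small beside either fall. Here the arrays only just failed to overlap, with a lowest miR-29 difference of -1.876 and a highest control difference of -1.878. The change of this pair was 0.055 within slide 1 and, with normexp, 0.061 (exact permutation p = 0.4, unadjusted). The change of the brighter Col18a1 probe minus that of the dimmer was 0.15 (exact permutation p = 0.4, adjusted p = 0.4).

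**Figure D2:**
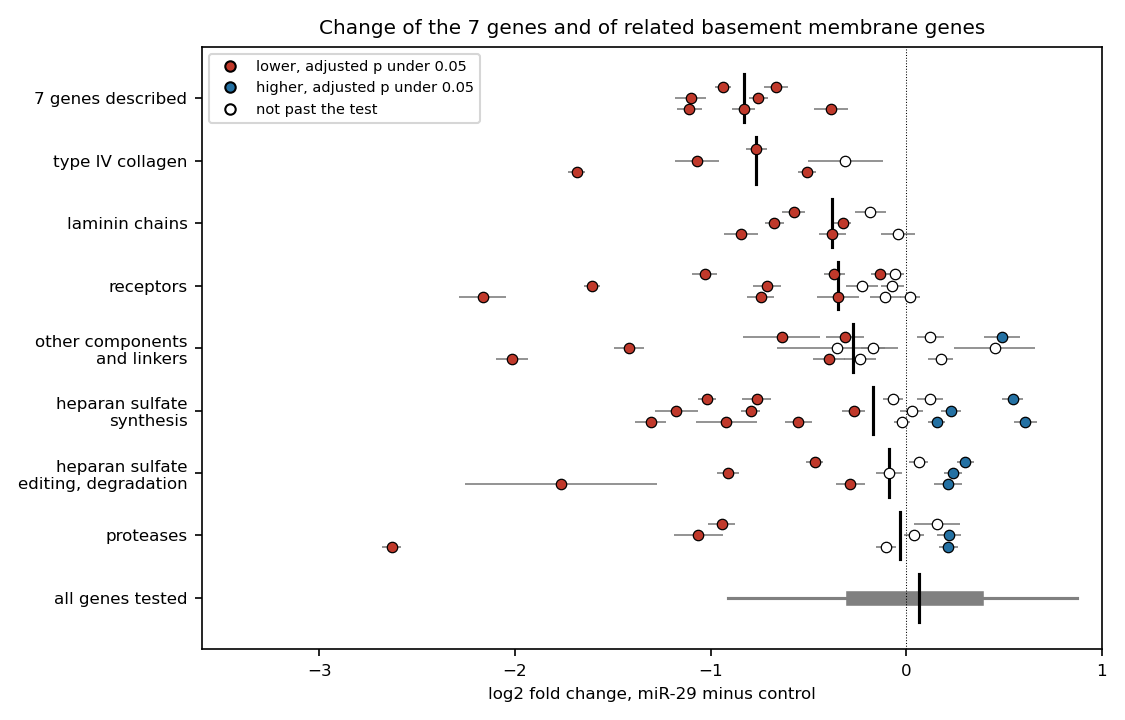
Log2 fold changes, miR-29 minus control, of the 7 genes and of 7 lists of related genes, 1 point per gene with its SE from limma on 3 arrays a group, and a bar at each median. The bottom row gives the 5th, 25th, 50th, 75th and 95th percentiles of all 19741 genes and transcripts tested. All 7 genes lie left of 0, with a median of -0.83. The median of the type IV collagen list, -0.77, is the value of the brightest Col4a1 probe. The other Col4a1 probe gave -1.84, so how close the medians lie depends on the choice of probe.

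The partners that these proteins bind were lower in most cases. Of the 5 type IV collagen genes tested, 4 fell and 0 rose (median -0.77), and Col4a4 missed the threshold (-0.31, and 0.14 within slide 1). Col4a2 fell by 1.68 (SE 0.0453), Col4a5 by 1.07 (SE 0.112), Col4a1 by 0.77 (SE 0.0545) and Col4a6 by 0.51 (SE 0.0485). The value of Col4a1, which is also the median of the list, comes from its brightest probe, and the mean of its probes was -1.31. Of 7 laminin chains tested 5 fell and 0 rose (median -0.38), a smaller shift than that of the 7 genes. Lama3 fell by 0.84 (0.35 with normexp), Lama2 by 0.67, Lama5 by 0.57 and Lamb1, which forms part of the most common laminins, by 0.38 (0.25 within slide 1). The other Lama3 probe gave -0.29 and did not pass. Genes were represented by their brightest kept probe here, and the share of genes lower over the whole array was 22.8%, the share higher 35.3%.

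Receptors that bind laminin, perlecan or agrin were lower in 8 of 13 cases and higher in 0 (median -0.35), and the remaining 5 missed the threshold. With slide as a term of the fit or with median centring 7 of 13 were lower, with normexp 8 and with quantile normalization 9. Within slide 1 the median was -0.34. Scaled to the spike-ins, 13 of 13 were lower (median -0.60). That scaling moved the median of all genes by -0.25 and raised the count of lower genes on the whole array from 4493 to 7607. The integrin subunit Itga6 fell by 2.17 (SE 0.121) and dystroglycan, Dag1, by 1.61 (SE 0.0429). The syndecan Sdc4 fell by 1.03, where its other probe gave -0.19 and did not pass, and Itga3 fell by 0.74. The agrin receptor gene Lrp4 fell by 0.35 (SE 0.108, adjusted p = 0.0329). It missed the threshold once slide was a term of the fit (-0.14, adjusted p = 0.272), and also without any 1 of the arrays other than control replicate 1. Among 12 other basement membrane components and linkers tested, 5 fell and 1 rose (median -0.27), with 6 short of the threshold. The median was -0.068 with normexp and -0.17 with slide as a term of the fit, where 3 fell and 2 rose. Tinagl1, a laminin-binding matricellular protein, fell by 2.02, the collagen-binding glycoprotein gene Sparc by 1.42, and the netrin gene Ntn4 by 0.64. The Ntn4 call was lost within slide 1 (-0.36) and with normexp (-0.093). Fbln2, a fibulin that binds nidogen, rose by 0.49 (SE 0.092), and by 0.33 within slide 1, where it did not pass.

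Perlecan and agrin carry heparan sulfate, and the enzymes that build it went both ways. Of 16 heparan sulfate synthesis genes tested 8 fell and 4 rose (median -0.17), with 4 short of the threshold. The sulfotransferase genes Ndst1 and Hs3st1 fell by 1.31 (SE 0.0775) and 1.17 (SE 0.108) and the chain-initiating glycosyltransferase gene Extl3 by 1.02 (SE 0.0468). Xylt2, a xylosyltransferase gene whose enzyme starts the linker of the chains, rose by 0.61 (SE 0.0592), and the sulfotransferase gene Hs6st2 rose by 0.54 (SE 0.0521). Ndst3 fell by 0.92 and was above background on 1 of 3 miR-29 arrays and on 3 of 3 control arrays, and with normexp it was at -0.22 and did not pass. Scaled to the spike-ins, 11 fell and 2 rose. Of 9 genes for editing and degradation 4 fell and 3 rose (median -0.089), with 2 short of the threshold. With slide as a term of the fit 2 fell and 2 rose (median -0.014), and within slide 1 2 fell and 1 rose. Heparanase, Hpse, which cuts the chains, was well above background on none of the 3 miR-29 arrays. In the main comparison its level there was lower by at least 1.70-fold (limma adjusted p = 0.0235). With normexp the log2 fold change of Hpse was -0.26 (limma adjusted p = 0.0257). That is a smaller fall than the bound, so the bound holds for the main background subtraction only. The Hpse call was lost with slide as a term of the fit (adjusted p = 0.0981), without the filter on dim probes (adjusted p = 0.0535), and without miR-29 replicate 2, control replicate 1 or control replicate 3. The lysosomal enzyme gene Naglu fell by 0.91 and the sulfatase gene Sulf2 by 0.47, and Gusb rose by 0.30. Scaled to the spike-ins, 5 of the 9 fell and 0 rose, and Gusb was at 0.052 (adjusted p = 0.587).

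Proteases reported to cut these proteins showed no common direction in the main comparison, and the rises depended on the processing. Of 8 tested 3 fell and 2 rose (median -0.031), with 3 short of the threshold. Scaled to the spike-ins, 5 fell and 0 rose. With quantile normalization 4 fell and 0 rose, and with median centring or slide as a term of the fit 3 fell and 0 rose. With normexp 3 fell and 2 rose. The matrix metalloproteinase genes Mmp2, Mmp14 and Mmp3 fell by 2.63 (SE 0.0475), 1.06 and 0.94. Ctsl, the gene of cathepsin L, an enzyme that releases endostatin, rose by 0.22 (SE 0.0484), a call lost with slide as a term of the fit (0.20, adjusted p = 0.0551), quantile normalization (0.036) or median centring, and it stood at -0.035 with spike-in scaling. Bmp1, a procollagen protease gene, rose by 0.22 (SE 0.0626, adjusted p = 0.0257) with its brightest probe and had -1.18 with its other probe (adjusted p = 8.38e-05), so its direction depends on the probe. With slide as a term of the fit the brightest probe of Bmp1 did not pass (0.12, adjusted p = 0.182), nor without miR-29 replicate 1 or 2 or control replicate 2 or 3, and it stood at -0.032 with spike-in scaling.

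The genes whose values over the 6 arrays ran closest to a member, by the mean absolute difference on the log2 scale after each gene's own mean was subtracted, were sought among 13378 genes with a symbol. The closest to Nid1 were Gprc5a and Omd (0.028 and 0.030), the closest to Nid2 Snrk and Kif2c (0.0087 and 0.011), and the closest to Hspg2 Slc27a4 and Map3k6 (0.015 and 0.016). For Agrn they were Mrpl37 and Map4k4 (0.015 and 0.016), for Col15a1 Baiap2 and Gprc5a (0.018 and 0.025), for Col18a1 Htt and Mxd4 (0.026 and 0.027), and for Pxdn Lzic and Ybx3 (0.023 and 0.028). A lower level under miR-29 follows from the way these genes were searched, and among them only Gprc5a was close to more than 1 member.

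The cultures carried the labelled astrocyte transcripts. All 10 astrocyte markers were above background and 6 rose, 1 fell and 3 did not pass, with a summed level of 89.1 to 98.1 times the 75th percentile in miR-29 arrays and 60.1 to 63.8 times in control arrays. Gfap, the astrocyte filament gene, rose by 0.62 (SE 0.0771). Basement membrane genes are also made by vascular and meningeal cells, whose markers were measured too. Of 10 fibroblast and meningeal markers, all tested, 5 fell and 2 rose, and the summed level was 261 to 272 in miR-29 arrays and 586 to 625 in control arrays. Most of that sum came from Col1a1, Col1a2 and S100a4, which fell by 1.28, 2.27 and 1.21. Dcn, Igfbp2 and Foxc1 did not pass (0.18, 0.11 and 0.083), and the 2 that rose were Aldh1a2 (0.81) and Lum (0.43). The sum therefore does not stand for the whole list. The other Col1a1 probes gave -3.25 and -3.93, and the mean of its probes was -2.82. Of 10 pericyte and smooth muscle markers 7 were tested, 2 fell and 5 rose, and Rgs5 and Kcnj8 were not above background on any array. The summed level was 498 to 546 in miR-29 arrays and 303 to 340 in control arrays. Pdgfrb and Cspg4 fell, by 0.67 and 1.72. Acta2, Myh11, Cnn1, Tagln and Des rose, so this sum does not stand for the whole list. Of 10 endothelial markers 6 were tested, 2 fell and 3 rose, with a summed level of 3.22 to 3.49 in miR-29 arrays and 3.52 to 3.98 in control arrays, and Tek was not above background on any array. Of 7 microglia markers on the array 3 were tested, 2 fell and 1 rose, with a summed level of 3.17 to 3.41 in miR-29 arrays and 4.23 to 4.75 in control arrays, and Aif1, Cx3cr1 and Ptprc were not above background on any array. Csf1r fell by 1.39, but its other probe rose by 0.37. With slide as a term of the fit 1 microglia marker fell and 1 rose. The part of these cell types in the falls of the 7 genes was not tested. Neuron markers (7 tested) gave 2 falls and 3 rises, and markers of the oligodendrocyte lineage (7 tested) gave 1 fall and 5 rises.

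**Figure D3:**
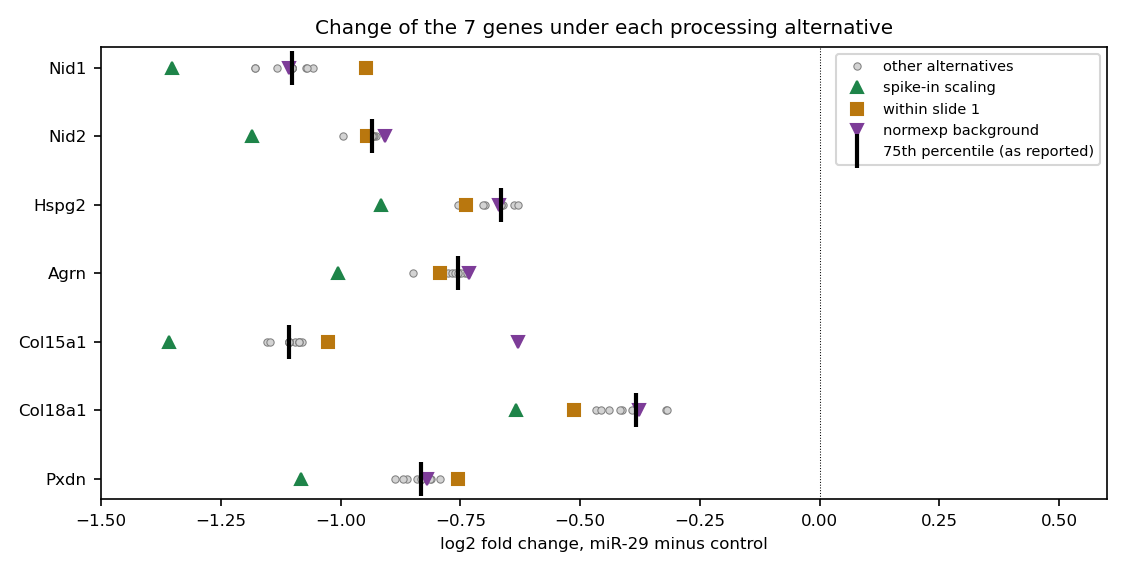
Log2 fold change, miR-29 minus control, of the 7 genes as reported (black bar) and under 18 processing alternatives, with spike-in scaling, the values within slide 1 and normexp background correction marked and the others in grey. Each value lies below 0, between -1.36 and -0.32, and spike-in scaling gives the lowest value for each gene.

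Spike-in scaling changes the log2 value of every gene on an array by the same amount. That shift was downward here, so the 7 genes, already lower, could not change direction. When 6 spike-in types set the scale of the arrays, which moved the median of all genes by -0.25, the log2 fold changes were -1.35 for Nid1, -1.19 for Nid2, -0.92 for Hspg2, -1.01 for Agrn, -1.36 for Col15a1, -0.63 for Col18a1 and -1.08 for Pxdn. For Col18a1 this is over 1.5 times the reported value, since the same shift was added to the smallest fall.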

How the data were processed

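The 6 arrays were read as deposited. Per the file headers, Agilent Feature Extraction 10.7.3.1 (the submitters' processing notes give 10.7) turned each spot's intensity into a background-subtracted processed signal on a linear scale, with no scaling between arrays. In the authors' own table of values, each array carries this intensity multiplied by 1 factor. How that factor was set is not stated in the labels.

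From these, the log2 processed signal, floored at 1, less the 75th percentile of the non-control spots of each array was computed. Control spots and flagged outliers were dropped, and repeated spots were averaged by probe. Kept probes were well above background throughout at least 1 group of 3 arrays (26428 of 41174). Accessions without versions were matched to RefSeq symbols of GRCm38.p6: 26933 probes matched 1 gene and 14241 none. Groups were compared by a two-sided moderated test in R 4.3.3 (limma 3.58.1, lmFit then eBayes), at an adjusted p of 0.05, per probe for the 7 genes and on the brightest kept probe for lists. Member p-values are from the fit over probes. The procedure was tested on simulated data with independent noise, few changed probes and no slide effect. That test cannot speak to the error rate where many probes change or slides differ, as here. The number of arrays limits the precision.

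The genes named are the 7 members, up to 4 past the test from each list with groups that do not overlap, the 2 nearest in pattern to each member, and fixed examples. Ctsl, Xylt2, Hs6st2, Col4a4, Sdc3, Ecm1, Igfbp2, Foxc1, Dcn, Aldh1a2, Lum, Pdgfrb, Acta2 and Des were chosen after their values were seen. Some that the rule takes are given by counts only or are not reported here. For a gene not above background in 1 group, the fold is a bound, with each dim array set to its own value or, if that is lower, to its lowest signal well above background. Members and lists were chosen with earlier results of these data known. The planned normexp correction used the median spot signal, since the files have no mean signal. There were 0 columns of other samples.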

Additional observations from a re-analysis of the deposited data

How the results depend on the processing

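Each of the 7 genes stayed lower and past the test in all 126 values under 18 alternatives (highest adjusted p = 0.0341), and each of the 8 tested probes in all 136 values under 17 alternatives. With single arrays left out the log2 fold changes ranged from -1.18 to -1.06 for Nid1, -0.94 to -0.93 for Nid2, -0.70 to -0.63 for Hspg2, -0.78 to -0.74 for Agrn, -1.15 to -1.08 for Col15a1, -0.44 to -0.32 for Col18a1 and -0.87 to -0.79 for Pxdn. The 18 alternatives are not independent checks of the 7 genes. Dropping or tightening the filter on dim probes, other eBayes options and the replicate block left their log2 fold changes unchanged. The mean of all kept probes changed Col18a1 alone, and the authors' own table of values gave nearly the same values. Slide as a block and within slide 1 gave identical log2 fold changes, since the other slide held control arrays only. Over the 7 lists, 37 of 70 genes were lower and 10 higher. The lower count stayed between 32 and 51, and the higher count was 6 with quantile normalization, 5 with median centring, 3 with spike-in scaling and 4 within slide 1. The cause was not tested. With spike-in scaling 7607 genes of the whole array were lower and 3010 higher (28.4% higher, against 4493, 6973 and 60.8% as reported), the median of all genes was -0.18, Bmp1 was -0.032 and Ctsl -0.035. Col4a4 was 0.14 with slide as a block and within slide 1. Bmp1 was -0.48 with the mean of its probes. The replicate numbers did not meet the rule for pairing: deviations of same-numbered arrays correlated at 0.13, 0.094 and 0.25, although each array correlated best with its own number, a hint from the data only. With the replicate block 37 list genes were lower and 9 higher, and the 7 genes kept their calls, among them Nid1 at -1.10. Of 75 other named genes, 60 kept direction and side of the threshold throughout. The fall of Col15a1 was 0.63 with normexp. The cause was not tested.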

Other observations

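Several related genes had probes that differed in the size of their change, which the choice of 1 probe per gene hides. Col4a1 had -0.77 for its brightest probe but -1.84 for its second one. Ndst1, a sulfotransferase gene of heparan sulfate, had -1.31 with its brightest probe, -0.95 and -0.077 with the others, the last not past the test (adjusted p = 0.375). Extl3 had -1.02 and -0.49, both past the test. Sdc3, a syndecan, had -0.13 with its brightest probe and -0.80 by its second probe. The brightest Sdc3 probe counts as lower in the fit over genes (adjusted p = 0.0470) but missed the threshold in the fit over probes (adjusted p = 0.0511), with slide as a block and in 9 further alternatives. The proteoglycan-binding glycoprotein gene Ecm1 had -0.17 with its brightest probe (not past the test) and -0.55 by its second probe. Ecm1 stayed short of the threshold in only 8 of 18 alternatives. It counted as lower with quantile normalization (-0.26, limma adjusted p = 0.00414) and with slide as a block (-0.25, limma adjusted p = 0.0338), among others. The probes of Tinagl1, -2.02 and -2.23, and of Sparc, -1.42 each, lay close together. Which transcripts each probe reads was not analysed here.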
